A study of Mus musculus with 2 samples.

Results

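The T cell receptor gamma locus of the mouse was represented by 34 transcripts in a deposited list of 110003 transcripts. The study's RNA came from embryonic stem cells of the V6.5 line, which is pluripotent, kept on a feeder layer of irradiated mouse embryonic fibroblasts. They were chosen by position alone, as the entries on either strand that overlap chromosome 13 from 19270000 to 19450000 on mm9. The study made 2 libraries, 1 of polyadenylated RNA and 1 of total RNA depleted of ribosomal RNA, with 1 library per group. The list is pooled, names no library and carries no read counts, so that depth is unknown and the libraries could not be compared. Names begin with U, FT, BROAD or WHITEHEAD. The meaning of these prefixes, and which transcripts came from these libraries, are not given in the sources used here. Each number below describes the arrangement of entries in 1 list and carries no error between cultures.

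A gamma chain pairs with a delta chain to form the antigen receptor of gamma-delta T cells. Its gene is carried in the germline as variable (V), joining (J) and constant (C) segments, and in developing lymphocytes the RAG recombinase cuts and joins the DNA of a V and a J segment. The joined V and J are then spliced as RNA to the constant exons. A V segment has a short leader exon, an intron and a second exon that ends, with no splice donor, at the recombination signal, while a J segment has a splice donor at its 3′ end. In the mouse the locus is built as 4 clusters, each with its own J and C segment, and Tcrg-C3 has been described as a pseudogene.

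Of the 34 transcripts, 25 were transcribed from the plus strand and 9 from the minus strand. By name, 28 started with U (82.4%), 5 with FT (14.7%) and 1 with BROAD, and no name started with WHITEHEAD. In the whole list the shares were 79.2% for U, 10.7% for FT, 7% for BROAD and 3.05% for WHITEHEAD. More than 1 exon was present in 23 transcripts (67.6%) against 29.9% of the whole list, and 10 spanned over 20 kb (29.4%) against 5.91%. Among transcripts with more than 1 exon, U names made up 19 of 23 here and 16725 of 32887 in the whole list. The numbers were 3 and 5113 for FT, 1 and 7697 for BROAD, and 0 and 3352 for WHITEHEAD. These shares were set side by side without a test, because transcripts of 1 locus share exons and are not independent. Nor was the window chosen without knowledge of these data. By content, 11 transcripts joined V, J and C segments, 2 joined V and J without a constant splice, 2 held J and C without V, and 3 held a constant splice alone. A further 1 held a V segment alone, 4 were other spliced transcripts and 11 were unspliced. Of the 34 transcripts 32 lay wholly inside the window, and the nearest transcripts outside it lay 24099 bp and 37832 bp away.

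**Figure D1:**
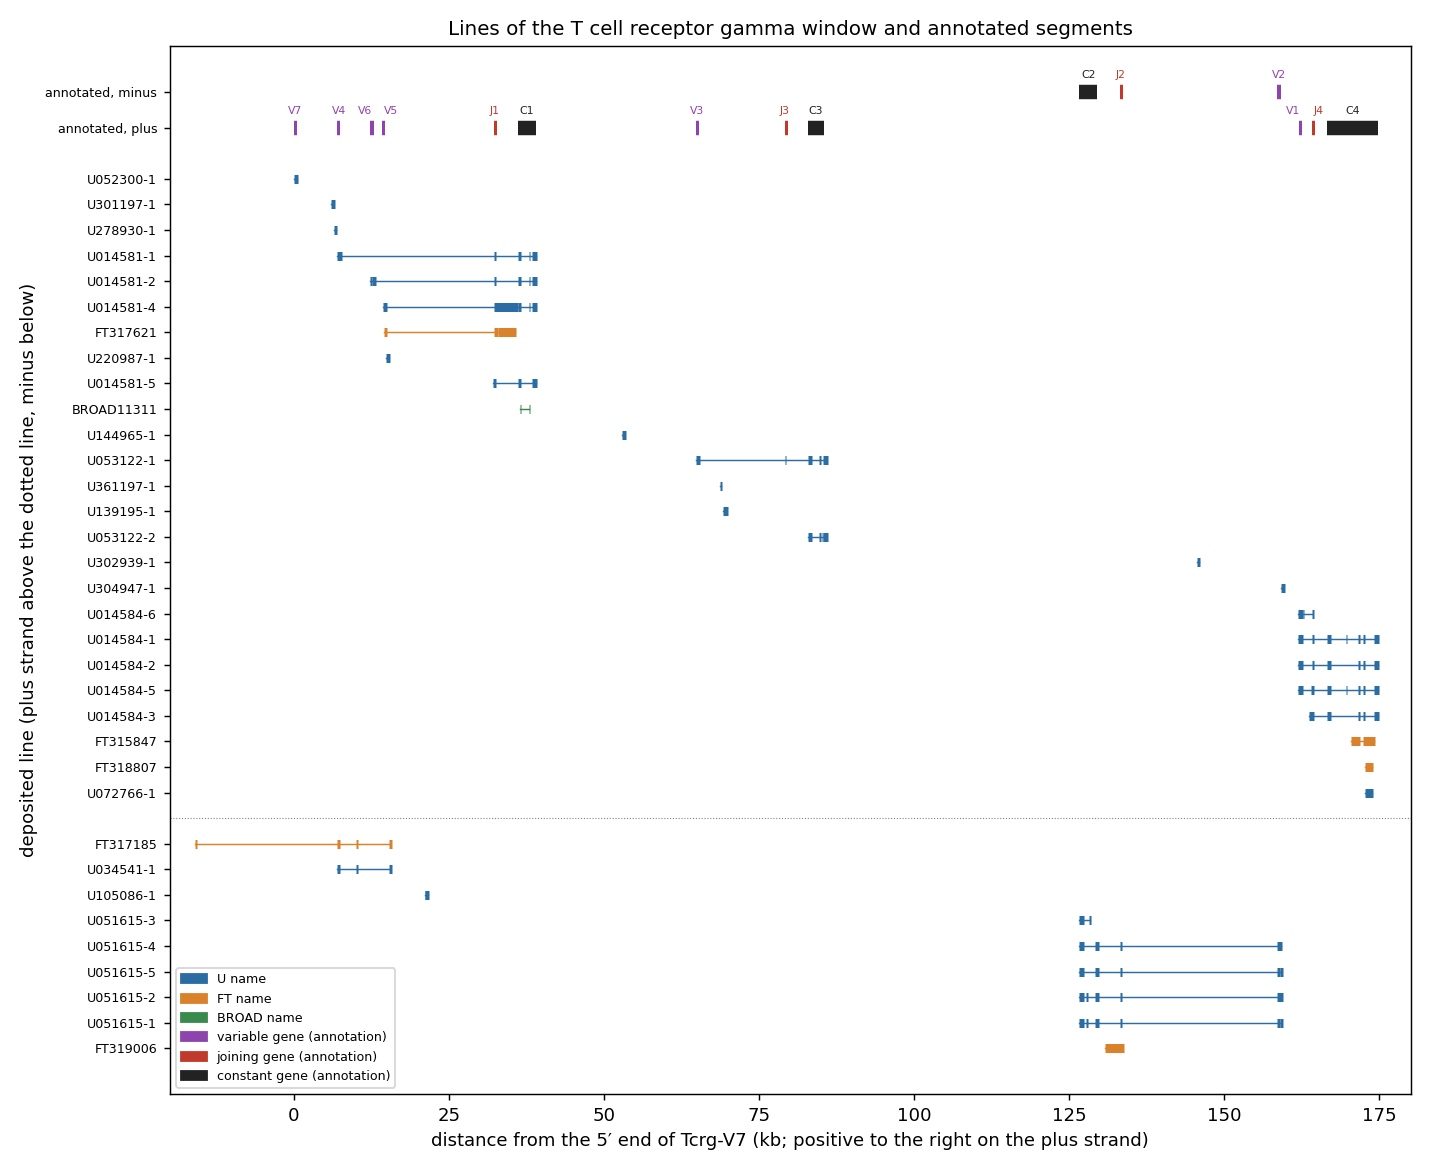
Exons (thick, drawn 0.25 kb wider than their length so that short ones show) and gaps (thin) of the 34 deposited transcripts, by distance in kb from the 5′ end of Tcrg-V7, with the annotated V, J and C genes above and colours for the name prefix. Long thin lines lead from the V genes to the J and C genes of the same cluster, with Tcrg-C1, Tcrg-C3 and Tcrg-C4 on the plus strand and Tcrg-C2 on the other.

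Segments were recognised by structure. The introns of the window matched in length 14 annotated introns of GENCODE gamma genes, used in 34 places, that all lay at 1 common difference of 91869 bp between the mm9 position in the list and the GRCm38 position in the annotation. The other 3 differences seen belonged to 1 intron each, whose length recurs in another gamma gene. All 4 constant genes and 6 of the 7 annotated V genes were recognised by such an intron, and the remaining V gene, Tcrg-V5, by the place of its second exon relative to them. All 4 J genes were recognised by their place and by their splice donor.

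The V-to-J joins are shown first as letters, because their ends carry the pattern described below. The letters are those of the GRCm38 reference from GENCODE transcripts, and not of any read or clone. Each run gives the last 24 bases of the V exon that the transcript keeps, in lower case, followed by the first 24 bases of the J exon that it keeps, in capitals. Bases that a recombined molecule may hold between them cannot be seen in a list of positions.
Tcrg-V4 to Trgj1, U014581-1: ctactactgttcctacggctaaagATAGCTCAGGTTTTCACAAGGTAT
Tcrg-V6 to Trgj1, U014581-2: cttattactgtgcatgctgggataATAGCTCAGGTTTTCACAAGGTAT
Tcrg-V5 to Trgj1, U014581-4: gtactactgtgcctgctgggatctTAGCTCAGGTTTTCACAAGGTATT
Tcrg-V5 to Trgj1, FT317621: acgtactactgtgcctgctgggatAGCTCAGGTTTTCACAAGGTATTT
Trgv2 to Trgj2, U051615-4: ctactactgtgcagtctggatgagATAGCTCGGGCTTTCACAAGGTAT
Trgv2 to Trgj2, U051615-1: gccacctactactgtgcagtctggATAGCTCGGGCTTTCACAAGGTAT
Tcrg-V3 to Trgj3, U053122-1: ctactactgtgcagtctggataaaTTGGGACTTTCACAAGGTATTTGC
Tcrg-V1 to Trgj4, U014584-1: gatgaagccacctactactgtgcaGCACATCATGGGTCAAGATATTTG
U051615-1 stops 5 bases before the end of Trgv2, so its lower-case side is the stretch 5 bases further 5′ than in U051615-4. For U053122-1 the V exon runs 12 bases past the annotated end of Tcrg-V3, and those bases are not shown. The last 3 bases of Tcrg-V6 repeat the first 3 of Trgj1, and U014581-2 keeps both copies. The germline bases beyond the segment ends were not available, so another place for that join could not be checked.

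In all, 13 transcripts joined a V to a J segment, 12 with U names and 1 with an FT name, and they used 6 of the 7 V genes and all 4 J genes. The 6 pairs were Tcrg-V4, Tcrg-V5 and Tcrg-V6 with Trgj1, Trgv2 with Trgj2, Tcrg-V3 with Trgj3, and Tcrg-V1 with Trgj4. In each of the 6 pairs the J gene was the next one downstream of the V gene on the same strand. No transcript joined a V gene of 1 cluster to the J or C gene of another. Tcrg-V7, the first V gene of the Tcrg-C1 cluster, was present in U052300-1 only, which spliced its leader over an intron of 101 bp and stopped 2 bases before the annotated end of the segment without reaching a J gene.

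The gaps between V and J started and ended at or close to the ends of the annotated segments, where recombination signals lie in the germline. In 3 transcripts both ends were exactly the annotated ends (U014581-1, U014581-2 and U051615-4), and in 8, these included, both lay within 5 bases. The 5 others were U053122-1 and the 4 transcripts of Tcrg-V1. In U014581-4 the J exon started 1 base into Trgj1. In FT317621 the V exon stopped 2 bases short and the J exon started 2 bases late. Its last 2 V bases equal the 2 bases left out of Trgj1, so a split 2 bases further 5′ gives the same letters. As listed, the Trgv2 transcripts ended at 4 different bases: at the end itself (U051615-4), 3 bases short (U051615-5), 5 bases short (U051615-1) and 1 base past it (U051615-2, whose J exon also started 2 bases early). In U051615-1 the first 2 J bases repeat the next 2 bases of Trgv2. A V end 3 bases short with the J exon 2 bases late gives the same letters there. All 4 transcripts of Tcrg-V1 stopped 11 bases short of its end and started 4 bases into Trgj4, so they share 1 pair of ends. Tcrg-V3 and Trgj3 were joined with the V exon 12 bases past its end and the J exon 4 bases in. Thus 10 different pairs of ends were listed for the 13 transcripts.

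**Figure D2:**
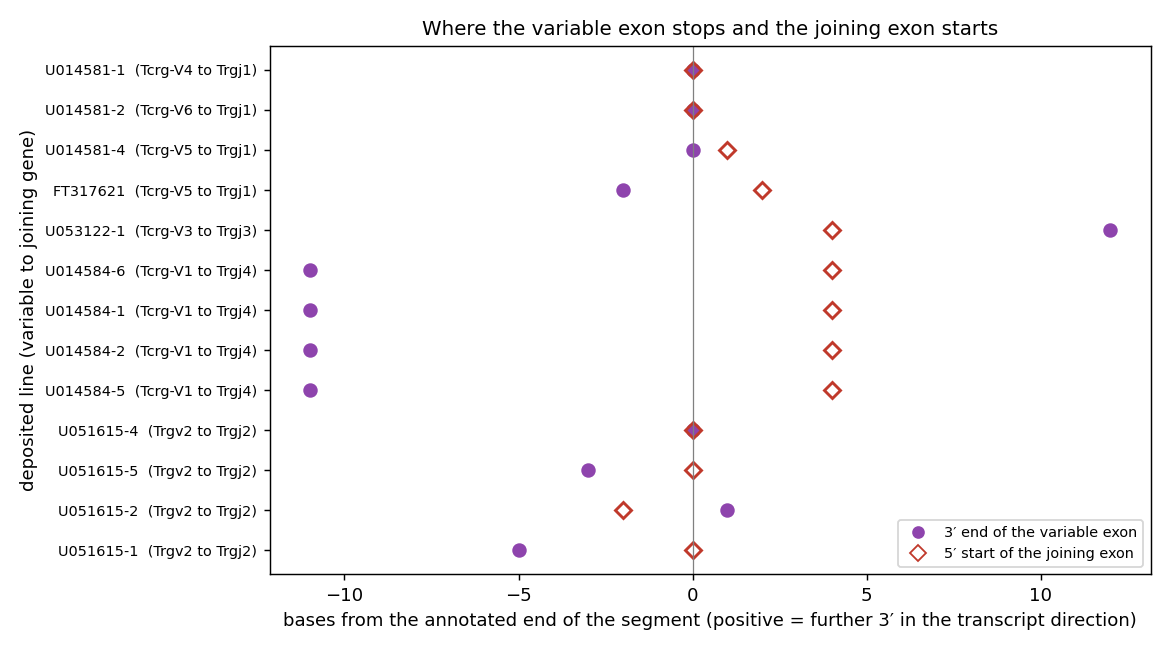
Bases between the 3′ end of the V exon (filled circle) or the 5′ start of the J exon (open diamond) of each transcript and the annotated end of that segment, where 0 is the annotated end and positive values lie further 3′ in the direction of transcription. Most points sit within 5 bases of 0, and the exceptions are Tcrg-V1 at -11 and Tcrg-V3 at 12.

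In mm9 the V and J exons of these transcripts lay between 1712 bp (Tcrg-V1 to Trgj4) and 25273 bp apart (Trgv2 to Trgj2 in U051615-1). The other distances were 13807 bp for Tcrg-V3 to Trgj3, 17618 and 17621 bp for Tcrg-V5, 19413 bp for Tcrg-V6 and 24836 bp for Tcrg-V4 to Trgj1. Direct gaps of this kind numbered 10 with a median of 22124.5 bp, against a median of 1379 bp over the 40062 distinct gaps of the whole list. Gaps of 1 pair that differ by a few bases were counted singly, such as 25265 and 25273 bp for Trgv2 to Trgj2. Over all 49 distinct gaps of the window, of every kind, the median was 1518 bp. The splicing steps around the V-to-J gaps were 6 annotated leader introns of 92 to 198 bp, and 1 J-to-C intron per constant gene. The latter measured 3700 bp for Tcrg-C1, 3693 bp for Tcrg-C2, 3708 bp for Tcrg-C3 and 2345 bp for Tcrg-C4. In the 10 transcripts that spanned over 20 kb, exons made up between 1.58% (FT317185, on the minus strand) and 18.6% (U014581-4) of the span. U014581-1 spanned 32075 bp with 1434 nt of exon (4.47%), and FT317621 had 15.3%. In U014584-5 and U014584-6 a short block lay between Tcrg-V1 and Trgj4, of 10 nt and 7 nt, at 2 different places. Those blocks match no annotated segment.

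**Figure D3:**
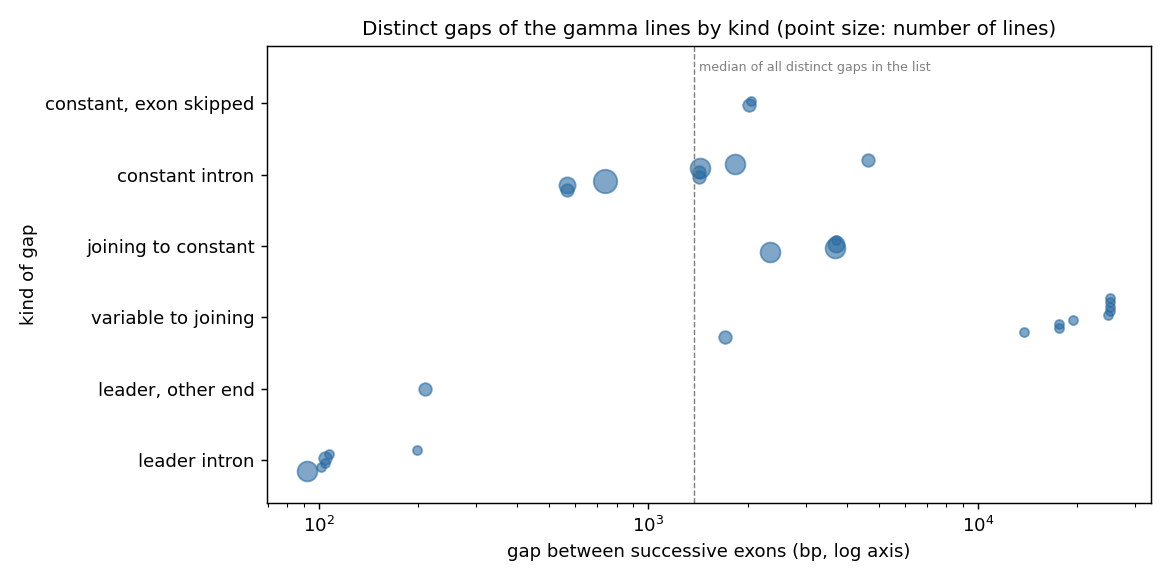
Length in bp (log axis) of each distinct gap between successive exons, by kind, with a larger point for a gap held by more transcripts and points spread vertically only to keep them apart. The V-to-J gaps lie between 1712 and 25273 bp, and all but the smallest lie to the right of every leader, J-to-C and constant gap.

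The leader step varied in 2 genes. Of the 13 V-to-J transcripts, 9 held an annotated leader intron. In U051615-1 and U051615-5 the second exon of Trgv2 began 105 bases further 3′ than annotated, which lengthened the leader intron from 104 to 209 bp and left V exons of 197 and 199 nt, against 307 nt in U051615-4. The Tcrg-V5 transcripts U014581-4 and FT317621 had no leader exon and began inside the second exon of that gene, with V exons of 296 and 200 nt. By the rule that a joined transcript holds an annotated leader intron and an intron of a constant gene, 8 transcripts joined V to C, of which 2 belonged to Tcrg-C1, 2 to Tcrg-C2, 1 to Tcrg-C3 and 3 to Tcrg-C4. Counting any exon over a V gene, a rule added after the data were seen, gave 11, all with U names, with 3, 4, 1 and 3 for the same genes.

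Tcrg-C1 (GENCODE ENSMUSG00000076749.2, plus strand) was held by 5 transcripts with a constant splice, 4 with U names and BROAD11311. They spanned 1506 to 32075 bp. U014581-1, the longest, ran from the leader of Tcrg-V4 at 19276821 to 19308895 and had exons of 141, 307, 60, 330, 45 and 551 nt. U014581-2 and U014581-4 kept the same last 3 exons behind Tcrg-V6 and Tcrg-V5. The first constant exon of 330 nt (19305972 to 19306301) was the same in 4 transcripts, and exon 2 (45 nt) and exon 3 (551 nt) were each the same in 3. Exon 1 encodes the immunoglobulin-like domain, and the last exon the transmembrane part and the end of the message. U014581-5 skipped exon 2 over a gap of 2043 bp. BROAD11311 held 35 nt of the end of exon 1 and 40 nt of exon 2 around the annotated intron of 1431 bp, which is the 1 splice of the locus present under a BROAD name.

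RNA that read through the J-to-C1 intron was present next to the spliced form. U014581-4 did not use the donor of Trgj1, and its J exon ran 409 bases past it. A second exon of 2894 nt followed after a gap of 149 bp, and constant exon 1 after a gap of 248 bp, which gave this transcript the largest summed exon length of the Tcrg-C1 group (4584 nt). FT317621 ran 321 bases past the same donor and then, after 226 bp, had an exon of 2645 nt that ended at 19305463, before constant exon 1. Both started in Tcrg-V5. In the other 11 V-to-J transcripts the J exon ended exactly at its donor.

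Tcrg-C2 (ENSMUSG00000076752.2) is the gene of the inverted cluster, and its transcripts lay on the minus strand. All 4 with a constant splice joined Trgv2 to Trgj2, and they spanned 32465 to 32521 bp. The longest, U051615-1, ran from 19396518 to 19429038 with 6 exons. Exon 1 (330 nt, 19399091 to 19399420) was the same in all 4, and the last exon (554 nt) was the same in 5 transcripts, the largest number sharing 1 constant exon in the window. Exon 2 of 30 nt was present in U051615-1 and U051615-2 and was skipped over 2019 bp in U051615-4 and U051615-5. The splicing choice did not follow the leader form, since each form of the leader was found once with and once without exon 2. U051615-3 held the last exon with a first exon of 119 nt that lies between exons 1 and 2 and matches none of them.

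Tcrg-C3 (ENSMUSG00000091682.2) had the fewest transcripts, 2 with U names and 1 of them joined to Tcrg-V3 and Trgj3. U053122-1 ran from 19334714 to 19355675 over 20962 bp, and U053122-2 covered the constant gene alone over 2919 bp. They shared exon 1 (330 nt) and differed after it. Exon 2 was 49 nt in U053122-1 and 44 nt in U053122-2, exon 3 began 11 bases earlier in U053122-1, and U053122-2 had a block of 7 nt between them. The last exons ran 278 and 275 bases past the annotated end of the gene. Of the 5 distinct constant exons only 1 was shared. No transcript of this gene held a run of intron, exon and intron lengths found in the annotation, and so a match by such runs found Tcrg-C1, Tcrg-C2 and Tcrg-C4 and not Tcrg-C3.

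Tcrg-C4 (ENSMUSG00000076757.9, plus strand) had the most exons. Of its 5 transcripts with a constant splice, 3 joined Tcrg-V1, Trgj4 and the constant gene over up to 12939 bp (U014584-1, U014584-2 and U014584-5). The annotated exons of 330, 54 and 45 nt were the same in 4 transcripts, and the last exon was 559 nt in 3 and 563 nt in 1. A further exon of 45 nt (19439440 to 19439484) lay between exons 1 and 2 in U014584-1 and U014584-5. It is not in the annotation used, and where it was absent exons 1 and 2 were spliced over the annotated intron of 4648 bp. U014584-5 had 9 exons, the most of any transcript in the window. FT315847 spliced only the intron of 740 bp between exons 2 and 3 and kept intron sequence on both sides, with exons of 1189 and 1790 nt.

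**Figure D4:**
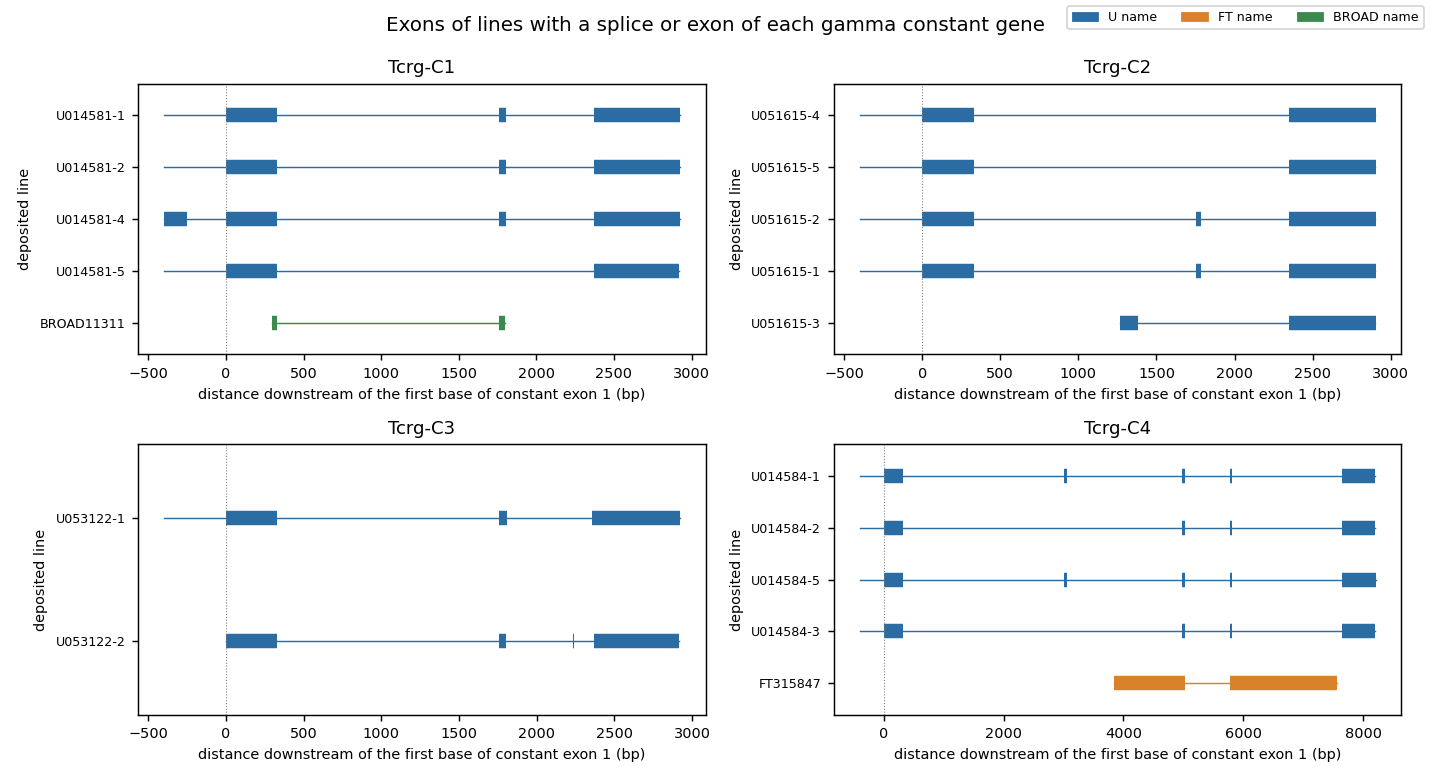
Exons (thick) and gaps (thin) of the transcripts of each constant gene, in the direction of transcription, by distance in bp downstream of the first base of constant exon 1, with everything over 400 bp upstream left out. Exon 1 of 330 nt starts and ends at the same bases in the U transcripts of each gene that hold it. Exon 2 is absent from some transcripts of Tcrg-C1 and Tcrg-C2, the last exons of Tcrg-C3 start 11 bases apart, and BROAD11311 and FT315847 hold only parts of their genes.

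The exons between the first and the last encode the connecting piece between the receptor domain and the membrane. The reference letters, again from GENCODE transcripts on GRCm38, are given so that the exons kept or skipped above can be compared.
Tcrg-C1 exon 2: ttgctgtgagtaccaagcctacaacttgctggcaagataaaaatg
Tcrg-C2 exon 2: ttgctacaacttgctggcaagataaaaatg
Tcrg-C3 exon 2: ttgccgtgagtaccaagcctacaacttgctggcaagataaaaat
Tcrg-C4 exon 2: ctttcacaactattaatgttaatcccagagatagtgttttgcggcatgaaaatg
Tcrg-C4 exon 3: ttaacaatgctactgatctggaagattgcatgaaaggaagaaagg
They measure 45, 30, 44, 54 and 45 nt. The first exons all measure 330 nt, and Tcrg-C1 was identical at 97.3% of bases with Tcrg-C2 and 96.1% with Tcrg-C3, but at 82.1% with Tcrg-C4. Among the J segments of 60 bases, Trgj1 was identical at 93.3% with Trgj2 and at 90% with Trgj3. Trgj4 measures 61 bases. With copies this alike the cluster given to a short stretch is uncertain, since the treatment of reads that fit several places was not stated. As listed, the intron of BROAD11311 measures 1431 bp as in Tcrg-C1, and the matching introns measure 1423 bp in Tcrg-C2 and 1429 bp in Tcrg-C3. That length follows from the place given to the transcript, so it cannot settle the cluster.

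Over the 4 genes, 21 distinct constant exons were present and 11 of them were shared by at least 2 transcripts. Among transcripts with a constant splice, 3′ ends were compared in those that held the last constant exon, with exon 2 skipped or not. These ends lay within 3 bp of each other for Tcrg-C1, 0 bp for Tcrg-C2, 3 bp for Tcrg-C3 and 4 bp for Tcrg-C4. The U transcripts with a splice of a given constant gene all carried 1 number before the hyphen, and this number differed between the 4 genes.

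Transcripts that began upstream of a J segment and were spliced to the constant gene without a V segment were present at Trgj1 and Trgj4. U014581-5 began 258 bases before Trgj1, used its donor and reached Tcrg-C1 over the intron of 3700 bp. U014584-3 began with an exon of 96 nt and, after 60 bp, an exon of 402 nt that starts 341 bases before Trgj4 and ends at its donor, from which it was spliced to Tcrg-C4 over 2345 bp. This is the form known as germline or sterile transcripts, which need no recombination. At Trgj2 the unspliced minus-strand transcript FT319006 covered the segment from 212 bases before it and continued into the J-to-C intron for a length of 2672 nt. No transcript of this kind was found at Trgj3.

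The 11 unspliced transcripts measured 209 to 2672 nt with a median of 348 nt. Of these, 10 were on the plus strand and 1 was on the minus strand. By name, 9 had U names and 2 FT names. FT319006, described above, was the only one to overlap an annotated V, J or C exon, so that none overlapped a constant exon. FT318807 and U072766-1 covered the same 1057 nt (19442593 to 19443649) inside the last intron of Tcrg-C4. U139195-1 (604 nt) and U361197-1 (209 nt) lay in the Tcrg-V3 to Trgj3 gap, 3825 and 3354 bp downstream of the V gene. U220987-1 (364 nt) lay 134 bp downstream of Tcrg-V5, and U278930-1 (272 nt) and U301197-1 (277 nt) lay 244 and 616 bp upstream of Tcrg-V4. U144965-1 (261 nt) lay 11602 bp upstream of Tcrg-V3, and U302939-1 (233 nt) lay on the opposite strand of the Trgv2 to Trgj2 gap. U304947-1 (348 nt, plus strand) and the minus-strand transcript U051615-1 face away from each other at Trgv2, with 1 base between their 5′ ends.

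The minus strand of the Tcrg-C1 cluster held Gm31887, annotated as an antisense gene. FT317185 had all 3 of its introns, with 4 exons over 31521 bp and 499 nt of exon. U034541-1 had 2 of the 3, with 3 exons over 8522 bp. Both overlapped exons of 1 plus-strand transcript, U014581-1, at Tcrg-V4. U105086-1, with 2 exons and a gap of 65 bp, lay on the minus strand between Tcrg-V5 and Trgj1 and has too few exons for a match by runs of lengths.

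Other antigen receptor loci gave the setting. Introns of equal length at a shared position difference identified 226 of the 377 annotated receptor genes that have an intron. These were 10 of 11 for gamma, 114 of 119 for the immunoglobulin heavy chain, 91 of 102 for kappa, 11 of 117 for T cell receptor alpha and delta, and none of the 24 for T cell receptor beta or of the 4 for lambda. By this match, which counts annotated introns only, 7 of the 10 gamma transcripts with a V leader intron also held a constant intron (70%). The same was true of 29 of 132 heavy-chain transcripts (22%) and of none of the 12 alpha and delta or 103 kappa transcripts. The kappa constant gene has no intron, so that its joins cannot be seen in this way. In the heavy-chain region 380 transcripts were listed, of which 76.1% had more than 1 exon and 34.2% spanned over 20 kb, side by side with 67.6% and 29.4% for gamma. No difference between these loci was tested.

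Genes of the receptor's partners and of its cells were not found. Of 22 genes fixed as the pathway and its neighbours, 21 could be matched by exon and intron lengths and 3 were found, namely Tcrg-C1, Tcrg-C2 and Tcrg-C4. The CD3 chains that carry the signal (Cd3d, Cd3e, Cd3g, Cd247), the recombinase gene Rag2, the kinases Lck and Zap70, and the neighbouring genes Amph, Epdr1 and Stard3nl were among those without a match, and Rag1 has too few exons to be matched. T cell markers were found for 0 of 9 matchable genes and B cell markers for 0 of 5. The markers of the labelled cells were equally absent, with 0 of 4 for embryonic stem cells (Pou5f1, Nanog, Klf4 and Zfp42) and 0 of 5 for fibroblasts, and in the whole list 1.73% of matchable protein-coding genes were found. The list thus cannot show which cells the gamma transcripts came from, and a part of other cells in them was not tested.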

How the data were processed

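RNA was sequenced as 1 polyadenylated and 1 ribosomal-depleted library. The submitters' processing notes name TopHat and mm9. Its version and the steps that made the list are not given in the sources used here. Per transcript, the deposited list has 12 columns. Positions, strand, name and blocks were used. The score column holds the authors' deposited scores, whose meaning is not given, and was not used.

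Adjacent blocks less than 30 bp apart were treated as 1 exon. Gene names came from GENCODE M21 (GRCm38): equal intron lengths on the same strand were required, and V, J and C segments were then recognised by an equal distance from the first intron of Tcrg-C1 within each build. No coordinate was converted for printing, and list positions are 1-based on mm9. For receptor loci a position difference had to be shared by 3 annotated introns within 200000 bp. The matching was also run on simulated transcripts that kept the annotated introns and on decoys with lengthened introns. That design largely fixed its outcome, so it does not measure the errors of matching in this list. Python 3.11.15 was used.

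The members and lists were chosen with earlier results of these data known. The text names every transcript of the window. No test was made, as 1 pooled list has no replicates.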

Additional observations from a re-analysis of the deposited data

How the results depend on the processing

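Of 26 recomputed counts, 21 stayed within 1.5 times the reported value and 5 did not. Without names starting with U the window held 6 transcripts in place of 34. Requiring a start at least 5000 bp upstream of the constant gene left the total of joined transcripts at 8, while the counts rose from 2 to 3 for Tcrg-C1 and from 2 to 4 for Tcrg-C2, stayed at 1 for Tcrg-C3 and fell from 3 to 0 for Tcrg-C4, because Tcrg-V1 lies closer to its constant gene than that. Counting any exon over a V gene, an alternative chosen after seeing the data, gave 4 for Tcrg-C2. Single introns with shared position differences found 226 receptor genes in place of 11 by runs of lengths, which V genes with 1 intron cannot provide. Only transcripts wholly inside the window numbered 32, and 9 of the 11 unspliced transcripts were single blocks as deposited. No paired analysis was possible because the list is pooled, and no library could be left out. With no read counts, depth limits every count to what was listed.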
